A study of Mus musculus with 6 samples.

Results

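The genes examined here load polyunsaturated fatty acids into cell membranes, release them again, or oxidize them: Acsl1, Acsl3, Acsl4, Acsl5, Lpcat3, Pla2g4a, Alox5, Alox5ap and Alox15. They were taken by gene symbol from the deposited expression table, which lists all 9 of them among its 27198 genes, and all 9 passed the filter on low counts. RNA was sequenced from hematopoietic stem cells (HSCs) sorted from the bone marrow of male wild-type C57BL/6 mice without irradiation. The paper's methods give an age of 8 to 10 weeks, without saying if it holds at the start of treatment or at sorting. The control (Ctrl) mice received solvent, and the mice on long-term FA (l-FA) received daily intraperitoneal injections of 50 mg/kg ferulic acid (FA), a plant phenolic acid with antioxidant properties, over 30 days. Each group has 3 libraries of amplified cDNA, and how many mice stand behind a library is not given in the sources used here, so n counts libraries and the p-values measure only the spread between them, which may be technical.

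A long-chain acyl-CoA synthetase (the Acsl enzymes) joins a free fatty acid to coenzyme A, which is the step that commits it to lipid synthesis or to oxidation. Acsl4 prefers arachidonic acid and related polyunsaturated chains, and Lpcat3 then inserts such chains into phospholipids, where their double bonds make them open to peroxidation. Ferroptosis is the form of cell death that follows when iron-dependent lipid peroxidation outruns its repair, and the loading enzymes together with lipoxygenases are known as parts of that process. In blood cells the same fatty acids, once freed by a phospholipase, also feed the synthesis of leukotrienes and prostaglandins.

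Total counts ranged from 19287735 to 20380610 per library, and depth differed little between the groups. Markers of the sorted phenotype were checked with the authors' FPKM, which scale counts by gene length and library total. Procr, a receptor of HSCs, was at 8.26 to 8.70 FPKM in Ctrl and 10.8 to 11.2 in l-FA, and Kit was at 78.9 to 80.8 and 91.2 to 92.1. The sort took CD34- and Flk2- cells, but RNA of both genes was abundant in every library, with Cd34 at 132 to 134 FPKM in Ctrl and 161 to 168 in l-FA, and Flt3, which encodes Flk2, at 119 to 119.7 and 194 to 198. Mpo, a marker of neutrophils and monocytes, was at 3679 to 3838 FPKM in Ctrl and 1018 to 1082 in l-FA, above each of these markers. A gene that is higher or lower in such sorted cells can reflect fewer cells of a type or less RNA per cell, which cannot be told apart.

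Of the 9 genes, 4 were higher in l-FA (Acsl4, Lpcat3, Alox5 and Alox15) and 1 was lower (Acsl5) at an adjusted p under 0.05 in edgeR's quasi-likelihood test. Among all 16520 genes tested, 50.5% passed the same threshold, 25.5% higher and 25% lower, so the 55.6% reached here is near the background. None of the 9 also passed a fold change above 2, which 11.8% of all genes did (6.68% higher and 5.1% lower), and the count was 0 as well with edgeR at an unadjusted p under 0.05 and with DESeq2. On the log2 scale the 9 fold changes had a median of 0.15, against 0.00 over all genes tested. The groups did not overlap for the 5 genes that passed and overlapped for Acsl1, Acsl3, Pla2g4a and Alox5ap, where 60.3% of all genes tested did not overlap. When edgeR tested for a change beyond 1.2-fold, which 27.3% of all genes passed, only Alox5 (adjusted p = 0.0452) and Alox15 (adjusted p = 0.0412) remained of the 9.

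**Figure D1:**
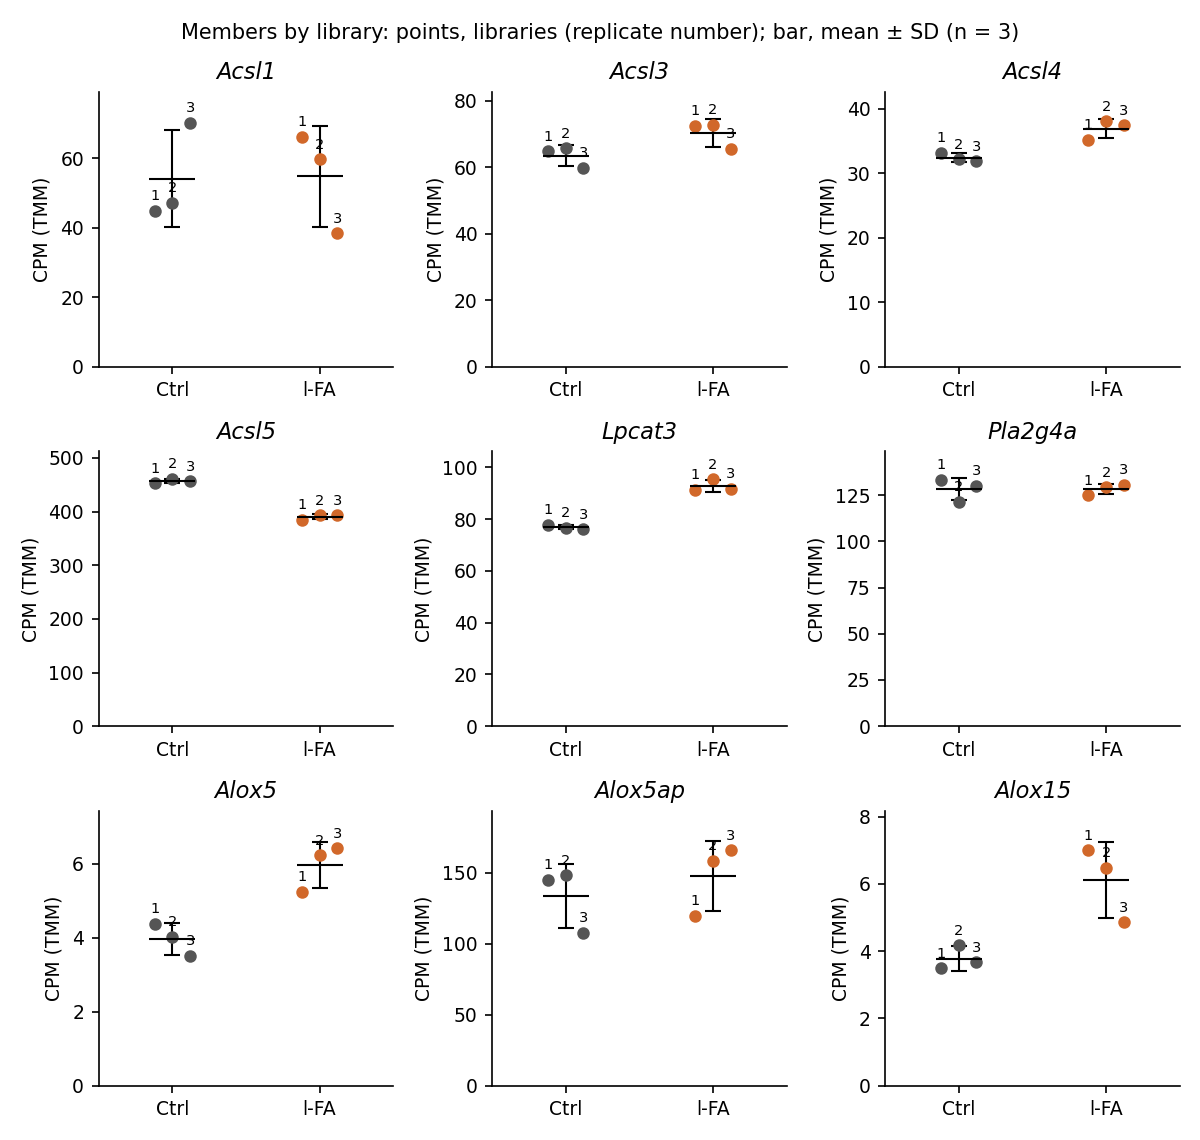
TMM-normalized CPM (counts scaled to library size, linear axes from 0) of each of the 9 genes in the 3 Ctrl and 3 l-FA libraries, with replicate numbers beside the points and the mean ± SD as bars. Acsl5 was lower in every l-FA library, Acsl4, Lpcat3, Alox5 and Alox15 were higher in every l-FA library, and single libraries of Acsl1 and Alox5ap stood apart within both groups.

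The acyl-CoA synthetases moved in different directions. Acsl5, an isoform of the endoplasmic reticulum and mitochondria, had 453, 461 and 456 CPM (counts scaled to library size) in the Ctrl libraries and 385, 393 and 393 in the l-FA libraries. The highest of the l-FA libraries was below the lowest of Ctrl. By edgeR, Acsl5 fell 1.17-fold (adjusted p = 0.000198), with a 95% interval of the log2 fold change from -0.28 to -0.18, and passed in all 6 fits that each left out 1 library. It is listed on chromosome 19 from 55240370 to 55286152, where it overlaps Zdhhc6. No source used here says if strand was counted, so reads of overlapping genes cannot be assigned with certainty. Coordinates of genes are those of the deposited table, and the submitters' processing notes name the build GRCm39.

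Acsl4, the isoform that activates arachidonic acid and is required for ferroptosis in many cells, had 33.2, 32.2 and 31.9 CPM in Ctrl and 35.2, 38.1 and 37.5 in l-FA. The groups were close to each other but did not overlap. Acsl4 (chromosome X, 141100989 to 141173531, with no other listed gene overlapping) rose 1.14-fold (adjusted p = 0.0212 from edgeR), with a 95% interval of the log2 fold change from 0.07 to 0.31. The call was not stable: adjusted p from edgeR was 0.0574 without Ctrl replicate 2, 0.0600 without Ctrl replicate 3, 0.0580 without l-FA replicate 2 and 0.0526 without l-FA replicate 3. Acsl3, an isoform of the endoplasmic reticulum and lipid droplets that resembles Acsl4 in sequence, had 64.8, 65.8 and 59.9 CPM in Ctrl and 72.5, 72.8 and 65.6 in l-FA. Replicate 3 was the lowest library of both groups, and the groups overlapped by that library alone. The log2 fold change of Acsl3 was 0.15 (95% interval 0.01 to 0.29, adjusted p = 0.0792 from edgeR), and adjusted p was 0.0249 without l-FA replicate 3 and 0.0475 with upper-quartile scaling. Acsl3 is listed on chromosome 1 from 78635542 to 78685460 and overlaps Utp14b.

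Acsl1, an isoform that in many tissues channels fatty acids to storage and to mitochondrial oxidation, had 44.9, 47.1 and 70.2 CPM in Ctrl and 66.1, 59.7 and 38.4 in l-FA. Ctrl replicate 3 was the highest library of all and l-FA replicate 3 the lowest. The log2 fold change was 0.02 with a 95% interval from -0.58 to 0.61 (adjusted p = 0.96 from edgeR). Acsl1 is listed on chromosome 8 from 46924074 to 46989088 and overlaps Gm45244. The interval of Acsl1 is wide and does not exclude a log2 fold change as low as -0.58 or as high as 0.61. The log2 fold change was 0.25 without Ctrl replicate 3 and -0.13 without l-FA replicate 1.

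The promoters of the genes that passed are shown because these genes moved in different directions. RefSeq entries on GRCm38.p6 were matched by symbol for 7 of the 9 genes, not for Alox5ap and Alox15, and the 250 bases before the start are printed 5′ to 3′ on the strand of the gene. The letters searched, on both strands, were the GC box GGGCGG, the E-box CACGTG, the CCAAT box with its 5 letters, the purine box GAGGAA, the AP-1 site TGACTCA and the antioxidant response element core TGACNNNGC, of which the last can overlap an AP-1 site. Capitals mark any match. The window of Acsl4 lies at chrX:142390536-142390785 on the minus strand and that of Acsl5 at chr19:55253119-55253368 on the plus strand.
Acsl4: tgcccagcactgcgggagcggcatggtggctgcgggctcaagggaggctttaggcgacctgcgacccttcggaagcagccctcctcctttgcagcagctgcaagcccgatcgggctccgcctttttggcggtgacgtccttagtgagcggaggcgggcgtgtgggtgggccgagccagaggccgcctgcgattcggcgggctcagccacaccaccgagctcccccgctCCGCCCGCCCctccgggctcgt
Acsl5: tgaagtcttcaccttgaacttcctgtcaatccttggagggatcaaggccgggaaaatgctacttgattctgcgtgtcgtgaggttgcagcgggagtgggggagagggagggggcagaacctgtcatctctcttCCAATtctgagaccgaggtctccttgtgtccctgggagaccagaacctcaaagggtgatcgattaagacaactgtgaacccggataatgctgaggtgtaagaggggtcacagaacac

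The Acsl4 window held 2 GC boxes, which overlap each other, and had a GC content of 70.8%, and the Acsl5 window held no GC box and a single CCAAT, at 52.8% GC. Among all 32851 promoter windows of this length, 32.7% held a GC box and 33.8% a CCAAT, and the median GC content was 52.4%. The antioxidant response core, held by 10.2% of all windows, the AP-1 site (4.46%) and the E-box (6.02%) were not found in any of the 9 windows of these 7 genes. A match is a description of the letters and not a binding site.

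Each isoform's share of the summed counts of Acsl1, Acsl3, Acsl4 and Acsl5 needs no scaling between libraries. Acsl5 took 76.0%, 76.1% and 73.8% of the family counts in Ctrl and 68.9%, 69.7% and 73.5% in l-FA. The highest l-FA library was within 1 point of the lowest Ctrl library, and the groups did not overlap. The mean share went from 75.3% ± 1.31 to 70.7% ± 2.48 (SD, n = 3 in each group), a difference of -4.60 percentage points. Acsl4 went from 5.35% ± 0.206 to 6.70% ± 0.356, and Acsl3 from 10.5% ± 0.677 to 12.7% ± 0.389, in both cases without overlap of the groups. For each of these 3 isoforms the exact two-sided permutation test gave p = 0.1, the smallest that 3 libraries against 3 allow. Acsl1 took 8.89% ± 2.15 in Ctrl and 9.87% ± 2.41 in l-FA (exact permutation p = 0.8). Since Acsl5 makes up most of the sum, a lower Acsl5 by itself raises the shares of the other isoforms. The shares also follow the swings of Acsl1 between libraries, and on its own level Acsl3 overlapped between the groups. The summed level of the family was 607 ± 11.0 CPM in Ctrl and 552 ± 15.7 in l-FA (exact permutation p = 0.1). A 95% Wilson interval of a single library's share reached at most 0.847 points to either side, which covers counting error only, since reads of amplified cDNA are not independent molecules.

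**Figure D2:**
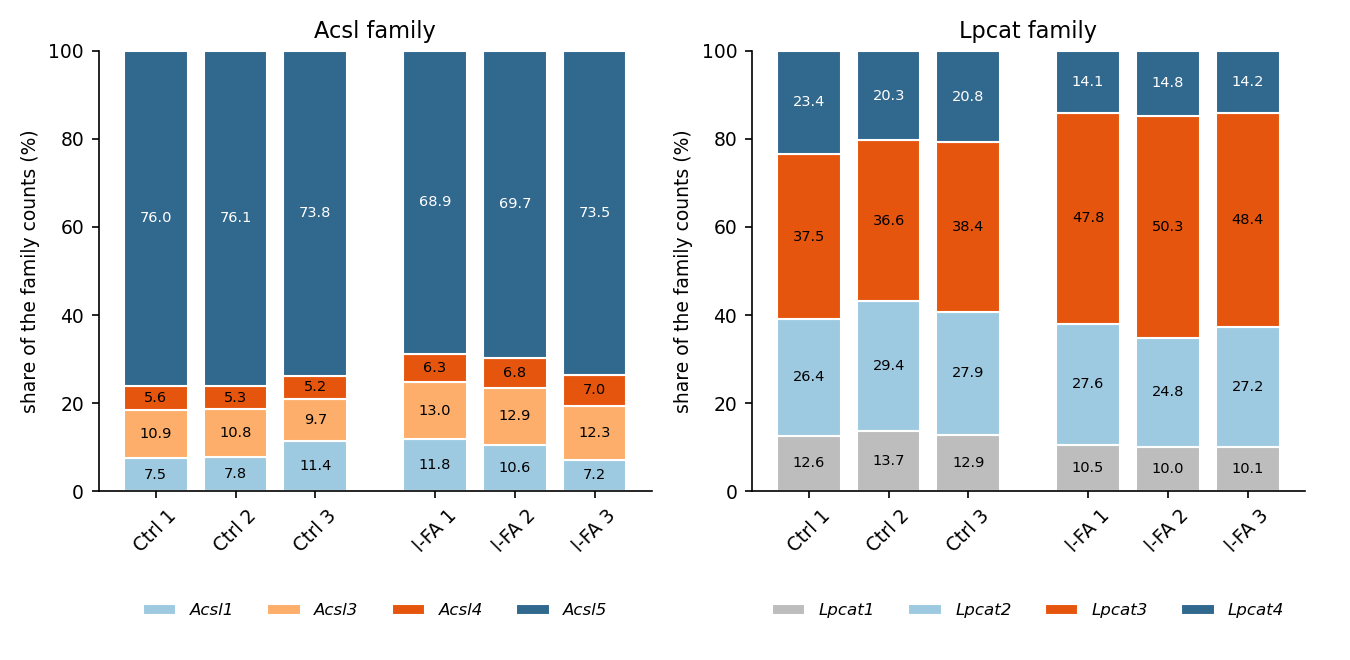
Share of the summed counts (percent, stacked to 100) taken by each gene of the Acsl family (left) and of the Lpcat family (right) in each library. In l-FA the segments of Acsl3, Acsl4 and Lpcat3 are larger and those of Acsl5, Lpcat1 and Lpcat4 smaller than in every Ctrl library, while Acsl1 varied between libraries of both groups.

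Lpcat3, which inserts polyunsaturated chains into lysophospholipids, had 77.8, 76.6 and 76.1 CPM in Ctrl and 91.3, 95.5 and 91.7 in l-FA. The libraries of each group lay close together and the groups were well apart. Lpcat3 rose 1.21-fold (edgeR, adjusted p = 0.000805, log2 fold change 0.27 with a standard error of 0.034) and passed in all 6 fits that left out 1 library. It is listed on chromosome 6 from 124639990 to 124681381 and overlaps Emg1. Its promoter window, at chr6:124662854-124663103 on the plus strand, is shown because Lpcat3 had the smallest adjusted p of the 4 genes that rose.
Lpcat3: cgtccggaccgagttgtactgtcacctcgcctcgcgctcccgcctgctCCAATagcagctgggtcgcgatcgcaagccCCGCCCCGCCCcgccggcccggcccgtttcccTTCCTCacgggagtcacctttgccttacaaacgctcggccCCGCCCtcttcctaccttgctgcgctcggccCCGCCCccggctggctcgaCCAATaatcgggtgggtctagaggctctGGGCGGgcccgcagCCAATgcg

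The window held 5 GC boxes, 2 of which overlap each other, 3 CCAAT and 1 purine box, at 70.0% GC. The purine box was found in 23.3% of all windows. Lpcat3 shares the reaction, rather than a common ancestry, with the other genes named Lpcat, and it did not move together with them. Of the summed counts of Lpcat1 to Lpcat4, Lpcat3 took 37.5% ± 0.938 and then 48.9% ± 1.32 in the l-FA libraries (SD, n = 3), while Lpcat4 went from 21.5% ± 1.66 to 14.4% ± 0.375 and Lpcat1 from 13.05% ± 0.530 to 10.2% ± 0.244. In these 3 genes the groups did not overlap (exact permutation p = 0.1 for each, the smallest possible). Lpcat2 took 27.9% ± 1.54 and 26.5% ± 1.51 (exact permutation p = 0.4). This family share was added after the values were seen. On their own levels, Lpcat1 (log2 fold change -0.46, adjusted p = 0.00148) and Lpcat4 (-0.69, adjusted p = 0.000413) fell in the same edgeR test.

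Pla2g4a, the cytosolic phospholipase that releases arachidonic acid from membranes, had 133, 122 and 130.2 CPM in Ctrl and 125, 129 and 131 in l-FA. The Ctrl libraries spanned the whole range of the l-FA libraries. The log2 fold change was 0.00 with a 95% interval from -0.10 to 0.10 (adjusted p = 0.998 from edgeR). Pla2g4a is listed on chromosome 1 from 149705369 to 149837041, with no other listed gene overlapping.

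Among the 9 genes, Alox5 and Alox15 had the largest fold changes and the lowest counts. Alox5, the lipoxygenase that starts leukotriene synthesis, had 84, 75 and 70 counts in Ctrl and 110, 125 and 128 in l-FA, which is 4.38, 4.02 and 3.51 CPM and 5.24, 6.23 and 6.41 CPM. Every l-FA library lay above every Ctrl library. Alox5 (chromosome 6, 116387038 to 116438139, no listed gene overlapping) rose 1.5-fold (edgeR, adjusted p = 0.0107), a log2 fold change of 0.59 with a 95% interval from 0.26 to 0.91, and passed in all 6 fits that left out 1 library. Its promoter window, shown for the gene of the set best known from myeloid cells, lies at chr6:116461179-116461428 on the minus strand.
Alox5: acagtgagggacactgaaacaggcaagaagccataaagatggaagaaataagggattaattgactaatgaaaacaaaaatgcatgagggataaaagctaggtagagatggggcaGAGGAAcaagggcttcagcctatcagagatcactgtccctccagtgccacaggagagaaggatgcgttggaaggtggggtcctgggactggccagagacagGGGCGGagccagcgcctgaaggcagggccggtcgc

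The window held 1 GC box and 1 purine box, at 52.8% GC. Alox15, which oxidizes fatty acids within intact phospholipids as well as free ones, had 67, 78 and 73 counts in Ctrl and 147, 130 and 97 in l-FA. The l-FA libraries were further apart than the Ctrl libraries, with replicate 3 the lowest, but all lay above Ctrl. Alox15 (chromosome 11, 70234978 to 70242857, no listed gene overlapping) rose 1.62-fold (edgeR, adjusted p = 0.0127), a log2 fold change of 0.69 with a 95% interval from 0.30 to 1.09, and it passed in all 6 fits without 1 of the libraries, at log2 fold changes from 0.60 to 0.85. Alox5ap, the membrane protein that presents arachidonic acid to Alox5, had 145, 148 and 108 CPM in Ctrl and 119.7, 158 and 166 in l-FA. Ctrl replicate 3 and l-FA replicate 1 stood below the other libraries of their groups, and the groups overlapped. Its log2 fold change was 0.15 (95% interval -0.24 to 0.54, adjusted p = 0.493 from edgeR), and 0.01 without Ctrl replicate 3 and 0.29 without l-FA replicate 1. Alox5ap is listed on chromosome 5 from 149201577 to 149224963 and overlaps Gm19719.

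Of the summed counts of these 3 genes, Alox5ap took 94.5% ± 0.612 (SD, n = 3) in Ctrl and 92.3% ± 1.47 in l-FA (exact permutation p = 0.1). The difference was -2.15 points, and -1.35 points without l-FA replicate 1, and by FPKM the groups overlapped (exact permutation p = 0.2). Alox5 took 2.83% ± 0.246 and 3.75% ± 0.196 (exact permutation p = 0.1), without overlap, and Alox15 took 2.72% ± 0.455 and 3.95% ± 1.29 (exact permutation p = 0.2), with overlap in the l-FA library that is lowest for Alox15, and its difference of 1.23 points was 0.551 without l-FA replicate 1. Since Alox5ap makes up most of the sum, these shares also follow the swings of Alox5ap between libraries.

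The 9 genes differed in their spread between libraries. For Acsl5 the SD between Ctrl libraries was 0.933% of the mean, where counting error alone gives 1.07%, and in l-FA it was 1.17% against 1.12%. Acsl4, Lpcat3 and Alox5 likewise varied by no more than 1.2 times counting error in both groups. Acsl1 varied by 26.0% in Ctrl and by 26.6% in l-FA where counting gives 3.09% and 2.99%, and Alox5ap by 16.9% and 16.7% where counting gives 1.97% and 1.83%. Alox15 varied by 9.49% in Ctrl, below its counting error of 11.7%, but by 18.3% in l-FA, where counting gives 8.96%.

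**Figure D3:**
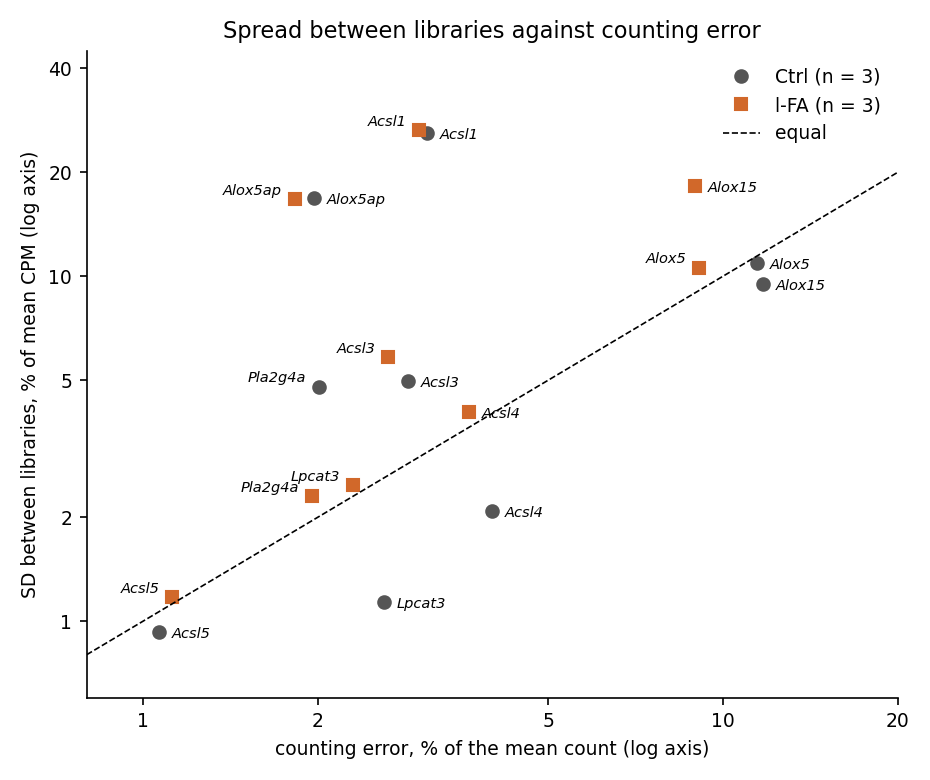
SD between the 3 libraries of a group, as a percent of the mean CPM (vertical, log axis), against the counting error of the mean count, 100 divided by its square root (horizontal, log axis), for each gene in Ctrl (circles) and l-FA (squares). The dashed line marks equality. Acsl1 and Alox5ap lie far above the line in both groups, Alox15 lies above it in l-FA (18.3% against 8.96%), and Acsl5, Acsl4, Lpcat3 and Alox5 lie on or below it or close to it.

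Levels of different genes are compared per length only. By the authors' FPKM, the order in Ctrl was Acsl5 (79.0 ± 0.634), Alox5ap (58.3 ± 9.57), Pla2g4a (16.4 ± 0.836), Lpcat3 (12.2 ± 0.123), Acsl3 (9.55 ± 0.427), Acsl4 (4.94 ± 0.0976), Acsl1 (3.72 ± 0.985), Alox15 (1.43 ± 0.131) and Alox5 (0.521 ± 0.0552), and the library ranges of neighbours in this order did not overlap. The order was the same in l-FA, where Acsl5 (71.2 ± 0.575) and Alox5ap (68.1 ± 11.2) overlapped, as did Acsl1 (3.97 ± 1.06) and Alox15 (2.44 ± 0.453). These FPKM use a length of 14149 bases for Acsl1, which is 3.63 times its longest protein-coding transcript in GENCODE M21 (3897 bases), while for Alox15 the ratio is 1.07. Per base of the longest transcript, chosen after the values were seen, Acsl1 moved above Acsl4 in both groups (13.5 ± 3.58 against 5.97 ± 0.118 in Ctrl) and overlapped Acsl3, Alox5ap moved level with Acsl5 in Ctrl (104 ± 17.0 against 105 ± 0.840) and above it in l-FA, and Alox5 overlapped Alox15. Acsl5 remained the most abundant acyl-CoA synthetase of the 4 on both scales.

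Beyond these 9 genes, 92 genes of the same pathways were listed by role, of which the table holds 82 and 70 were tested. At an adjusted p under 0.05, 21 were higher and 21 lower, which is 60.0% against 50.5% of all genes, with a median log2 fold change of -0.01. Past the fold limit as well, 4 were higher (Slc27a3, Mboat2, Alox12 and Ptgs2) and 5 lower (Pla2g7, Pla2g12a, Ptges, Ltb4r1 and Cysltr1). The rule on named genes fixed these 9 together with Fads1 and Fads2, and the other genes named below were chosen after their values were seen. The counts of single lists below stand beside 25.5% of all genes tested that were higher and 25% that were lower.

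Among other acyl-CoA synthetases and fatty acid transporters, 2 of 8 tested genes were higher and none lower in edgeR (0 at an unadjusted p under 0.05 and 0 with DESeq2). Slc27a3, of the fatty acid transport protein family, had 0, 2 and 4 counts in Ctrl and 85, 87 and 87 in l-FA, a ratio of 43.1 with an exact counting interval from 19.6 to 119, which covers counting error only. Its log2 fold change from edgeR was 5.27, but 4.72 without Ctrl replicate 1 and 6.16 without Ctrl replicate 3. Slc27a6, of the same family, had a log2 fold change of 0.95 (adjusted p = 0.000341 from edgeR). The list of lysophospholipid acyltransferases also holds Agpat1 to Agpat5. Of its 13 tested genes, 6 fell and 2 rose (Mboat2 and Agpat4), where 25% of all genes fell and 25.5% rose. The median log2 fold change was -0.29. The list itself was not tested. The falls were Agpat5 (-0.86), Lpgat1 (-0.80), Lclat1 (-0.76), Lpcat4, Agpat1 (-0.55) and Lpcat1. Mboat2 had a log2 fold change of 1.23 (edgeR, adjusted p = 0.00317, standard error 0.21), from 157, 92 and 95 counts to 276, 285 and 294, and overlaps the listed gene 2900060N12Rik.

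Of 7 phospholipase A2 genes tested besides Pla2g4a, 2 were higher (Plaat3 and Pla2g6) and 2 lower. Pla2g7, which hydrolyzes platelet-activating factor and oxidized phospholipids, had 16 counts in each Ctrl library and 0, 3 and 1 in l-FA, 12-fold lower with an exact counting interval from 4.4 to 45.9, which covers counting error only. Its log2 fold change from edgeR was -3.54, but -4.76 without l-FA replicate 2 and -2.96 without l-FA replicate 1. Pla2g12a, a secreted phospholipase, fell by 1.13 (standard error 0.25, adjusted p = 0.0101 from edgeR), from 401, 271 and 206 counts to 151, 152 and 123. Plaat3 rose by 0.72 on the log2 scale (adjusted p = 5.28e-05 from edgeR). Pla2g6 was higher by 0.24 on the same scale, and passed in 1 of the 6 fits that left out a library. The desaturases that introduce double bonds into polyunsaturated chains, Fads1 (log2 fold change 0.28, adjusted p = 0.000353) and Fads2 (0.11, adjusted p = 0.0386), were higher in the same edgeR test, and Fads2 passed in 1 of the 6 fits that left out a library, the one without l-FA replicate 3. None of the 5 desaturases and elongases tested was lower with edgeR (0 at an unadjusted p under 0.05 and 0 with DESeq2).

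The genes that use the product of Alox5 showed both directions. Lta4h, which hydrolyzes leukotriene A4 to the neutrophil attractant leukotriene B4, fell from 711 ± 3.34 to 370.0 ± 0.931 CPM (SD, n = 3) (log2 fold change -0.94, adjusted p = 9.65e-07 from edgeR). Ltc4s, which conjugates leukotriene A4 to glutathione, had a log2 fold change of 0.43 at the edge of the threshold (adjusted p = 0.0488 from edgeR) and passed in 1 of the 6 fits that left out a library. Of the receptors, Ltb4r1, which binds leukotriene B4, fell by 1.3 (standard error 0.064, adjusted p = 2.75e-05 from edgeR), from 545, 560 and 554 counts to 235, 237 and 240. Cysltr1, a receptor of cysteinyl leukotrienes, had 38, 19 and 43 counts in Ctrl and 0 in all 3 of l-FA, which makes it at least 11.4-fold lower against a floor of 3 counts per library. Across the lists, 6 of 16 leukotriene and prostaglandin enzymes tested were higher and 6 lower, and 4 of 10 receptors were higher and 4 lower. Of all genes tested, 25.5% were higher and 25% lower, and neither list was tested as a set. Ptgs2, the inducible cyclooxygenase, had a log2 fold change of 1.17 (edgeR, adjusted p = 0.00203, standard error 0.18) from 24 to 37 counts to between 66 and 73, and Ptges, a prostaglandin E synthase, fell by 1.79 (standard error 0.22, adjusted p = 0.000729).

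Alox12, the lipoxygenase of platelets, was listed at 0 counts in every Ctrl library and had 43, 41 and 36 counts in l-FA, at least 13.0-fold higher against a floor of 3 counts per library. It was 1 of 2 other lipoxygenases with enough counts to test, of which none was lower in edgeR (0 at an unadjusted p under 0.05 and 0 with DESeq2). Alox8, of the same list, failed the low-count filter and was not tested, with 10, 9 and 8 counts in Ctrl and 0 in all 3 of l-FA. Of 7 megakaryocyte and platelet markers, 4 were higher in l-FA, and their summed level was 209.7 to 219.6 CPM in Ctrl and 299 to 305 in l-FA, and their part in the values of Alox12 was not tested. Among 11 partners and suppressors of lipid peroxidation, 3 were higher (Cyb5r1, Aifm2 and Mboat2) and 3 lower (Pebp1, Dhodh and Gch1). Mboat2 was the one past the fold limit. Beside these counts and those of the platelet markers, 25.5% of all genes tested were higher and 25% lower.

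**Figure D4:**
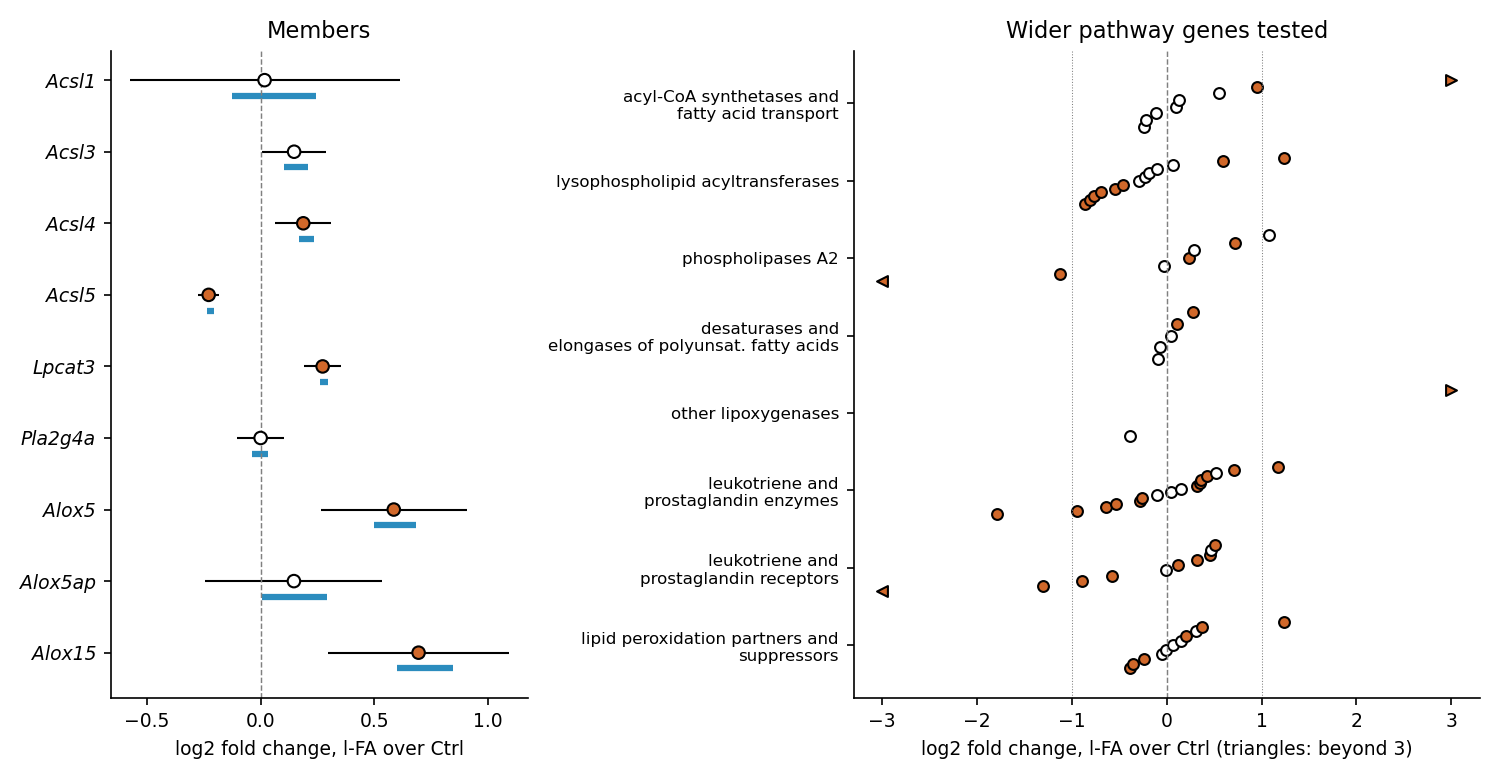
Log2 fold changes of l-FA over Ctrl from edgeR. Left, the 9 genes with their 95% intervals (black) and the range over fits that each left out 1 library (blue). Right, the tested genes of each wider list, 1 point a gene, with dotted lines at the fold limit and triangles for genes beyond the axis. Filled symbols passed an adjusted p of 0.05. All intervals of the 9 genes except those of Alox5, Alox15, Acsl1 and Alox5ap lie within 0.36 of 0, and 6 of 13 acyltransferases are filled on the lower side.

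Alox5 and Alox5ap are also genes of neutrophils, monocytes and mast cells, and Alox15 of eosinophils and macrophages, so markers of these cells are given beside them. The sort kept lineage- cells that carry c-Kit and Sca1, and the lineage antibodies include Mac-1 and Gr-1, which would remove mature myeloid cells. RNA of Itgam, which encodes a chain of Mac-1, was nevertheless present at 771 to 967 counts in Ctrl and 1209 to 1395 in l-FA, while Ly6g, an antigen of Gr-1, had at most 8 counts in a library. Of 10 neutrophil and monocyte markers, 9 were lower and 1 (Lyz2) higher, where 25% of all genes tested were lower and 25.5% higher. Their summed level was 23061 to 23996 CPM in Ctrl and 6048 to 6350 in l-FA. Most of that sum was Mpo, with 353247 to 361023 counts in Ctrl and 99285 to 102016 in l-FA. Of 6 eosinophil markers, 4 were higher (Prg2, Epx, Ear1 and Ear2) and 1 lower (Siglecf). Their summed level was 153 to 155 CPM in Ctrl and 270.5 to 272 in l-FA. Prg2, the major basic protein of eosinophil granules, had 1349, 1336 and 1442 counts in Ctrl and 3283, 3040 and 2959 in l-FA. Of 7 macrophage markers 3 were higher and 2 lower, with summed levels of 105 to 111 and 106 to 108 CPM, and of 6 mast cell and basophil markers 3 were higher and 1 lower, with 301 to 312 and 239.8 to 248 CPM. No marker of these 4 lists was at 0 in all 6 libraries, and the part of such cells in the values of the lipoxygenase genes was not tested. Of the 10 HSC markers, 7 were higher and 1 lower.

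**Figure D5:**
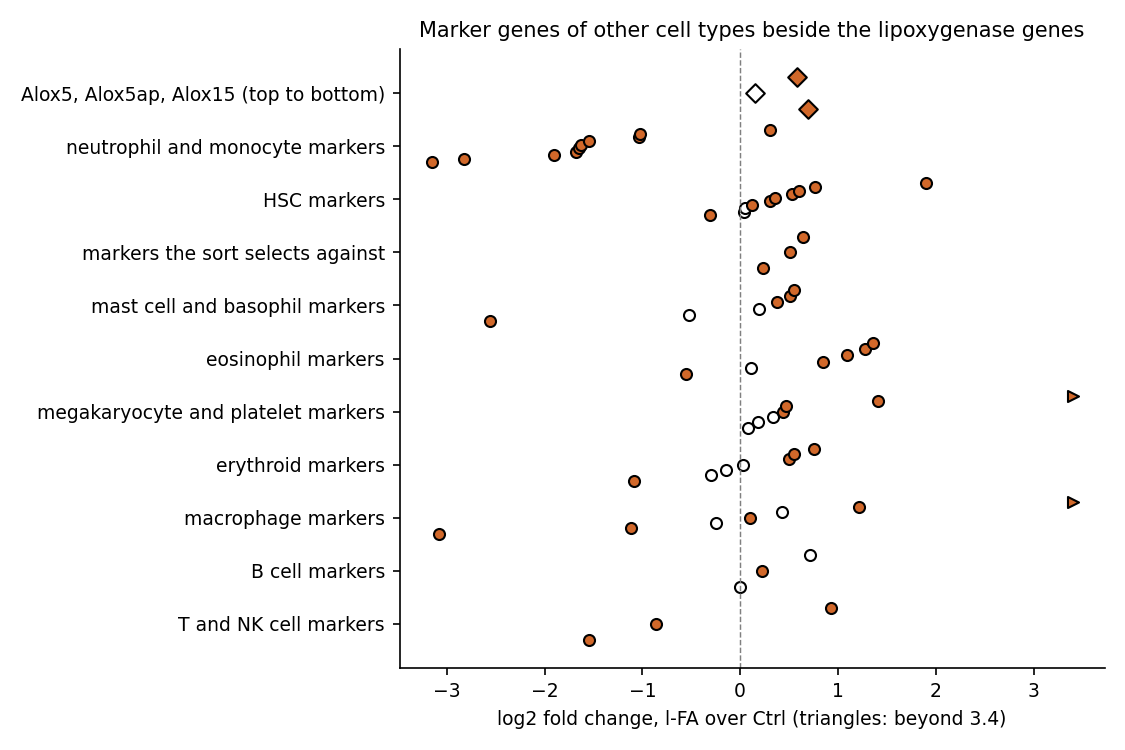
Log2 fold changes of l-FA over Ctrl (edgeR) for the tested marker genes of each cell type, 1 circle a gene, with Alox5, Alox5ap and Alox15 as diamonds in the top row. Filled symbols passed an adjusted p of 0.05, and triangles lie beyond the axis. The neutrophil and monocyte markers lie mostly below -1, while Alox5 and Alox15 lie between 0.5 and 0.7.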

How the data were processed

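RNA-seq of amplified cDNA was analysed for 3 Ctrl and 3 l-FA libraries of HSCs. Counts per gene, whole and not normalized, were deposited by the authors, and FPKM values that the authors made from the same counts, a gene length and the library total. The submitters' processing notes name HISAT2, SAMtools 1.3.1, StringTie, edgeR and the build GRCm39 without roles, and the counting tool, its strand setting and the annotation release are not given in the sources used here. The paper's methods name DESeq2 with limits on adjusted p (0.05) and on fold change (2).

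The test on counts was the quasi-likelihood test of edgeR 4.0.16 (R 4.3.3, TMM scaling), and p-values were adjusted by Benjamini-Hochberg over all 16520 genes that filterByExpr kept of 27198. The standard error is the log2 fold change divided by the square root of F, and 95% intervals use the test's degrees of freedom. On simulated counts for this comparison (16520 genes drawn, 16154 tested), 89% of 100 genes changed 2-fold and 38% of 100 changed 1.5-fold were called, and 3 unchanged genes. Only those genes were changed in the simulation, while 50.5% of genes passed in the data. Every gene was drawn at the common biological coefficient of variation of 0.134, where the median gene had 0.0956. The simulated shares therefore do not give the sensitivity in these data. Shares of family counts were compared with exact permutation tests over libraries (scipy 1.17.1). The members and gene lists were chosen with earlier results of these data known. All members are named, as are genes of each wider list past both thresholds or, where a list has none, the 2 tested genes with the smallest adjusted p. Alternatives included upper-quartile or RLE scaling, DESeq2 1.42.0, other low-count filters, a block for the replicate number, leaving out each library, a test against a 1.2-fold change (glmTreat), and FPKM, transcript length or Acsl6 in the shares. Promoter windows are from RefSeq.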

Additional observations from a re-analysis of the deposited data

How the results depend on the processing

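The call of 5 of the 9 genes (4 higher, 1 lower) was the same count under DESeq2, RLE scaling, other low-count filters and the replicate number as a block, 6 with upper-quartile scaling, 4 to 5 with each library left out, and 2 in the test against a 1.2-fold change. That test asks for a larger change, and in the wider lists it left 8 higher and 16 lower calls of 21 and 21. The wider lists also had fewer higher than lower calls with the block (16 and 22) and without a low-count filter (16 and 24). Same-numbered libraries did not deviate together (correlations of their deviations over 16520 genes from -0.050 to 0.0187). This shows no pairing by number but cannot exclude one, since counting error can hide a shared deviation. With the replicate block, adjusted p from edgeR was 0.0649 for Acsl4 and 0.0370 for Acsl3, and the difference in the share of Acsl5, -4.60 points, cannot change with a block in this balanced layout, while its exact permutation p within blocks was 0.25, the smallest that 3 pairs allow. The log2 fold change of Acsl1 ranged from -0.13 to 0.25 and that of Pla2g4a from -0.0395 to 0.0323 with 1 library left out, and Pla2g4a was at -0.0042 without a low-count filter; neither passed in any of these fits. By FPKM in place of counts, the share of Alox5 rose by 0.291 points, and the shares of Lpcat1 and Lpcat4 differed by -1.82 and -8.77 points. These moves follow from the gene lengths that the FPKM divide by. Counting error was largest for Alox5 and Alox15, at 8.96% to 11.7% of the mean count.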

Other observations

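Some genes of the same families were too low to test. Alox8 had 10, 9 and 8 counts in Ctrl and none in l-FA, at least 3.09-fold lower against a floor of 3 counts per library, and Aloxe3, a lipoxygenase known from skin, had none in Ctrl and 5, 11 and 15 in l-FA, at least 3.38-fold higher. Acsl6, an acyl-CoA synthetase of brain and red cell precursors, had 4, 3 and 9 counts in Ctrl and none in l-FA. Elovl4, an elongase, had 23, 9 and 11 counts in Ctrl and 0, 1 and 0 in l-FA, a ratio of 43.0 with an exact counting interval from 7.32 to 1739. These genes were named after their values were seen.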
